A study of Rattus norvegicus with 6 samples.

Results

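Circular RNAs (circRNAs) assigned to Mapre2, Nav3 and Macf1, genes whose proteins bind microtubules, were read in rat spinal cord after injury. A circRNA is a closed loop made by back-splicing, in which the end of an exon is joined to the start of the same or an earlier exon. Each distinct back-splice junction is a row of the deposited table. All rows with 1 of these 3 host symbols were taken, apart from antisense ones, of which the 3 hosts had 0. That gave 22 of 11061 circRNAs and 3 of 4443 hosts in sense: 10 junctions for Mapre2, 5 for Nav3 and 7 for Macf1.

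The samples were whole spinal cord of Wistar rats aged 8 weeks. In the SCI group (3 libraries) the cord was cut through. In the sham group (3 libraries) the laminectomy, which opens the vertebra, was done without injury to the cord. The design text describes a complete cut, the series title can be read as an incomplete one, and no source used here gives the time after surgery. No label states that each library is a separate rat. The p-values below therefore speak only of variation among the libraries, which may be technical.

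Microtubules are hollow tubes of tubulin that grow and shrink mainly at their plus ends, and they carry transport along axons. Mapre2 encodes EB2 of the end-binding family, whose members bind the tips of growing microtubules and bring other proteins there. Nav3 encodes neuron navigator 3, a large protein found in the nervous system that associates with plus ends. Macf1 encodes a giant spectraplakin that links actin filaments to microtubules and also binds end-binding proteins. In damaged axons the order of these filaments at the tip bears on whether a growth cone forms.

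Depth was low and unequal. The SCI libraries held 19603 to 21255 back-splice reads and the sham libraries 9805 to 12722, so 1 read was worth 0.00470% to 0.0102% of a library. The 22 junctions took 0.389% to 0.541% of back-splice reads in SCI and 0.559% to 0.652% in sham. Such sums were not taken over other sets of hosts, so how often sets separate in this way is not known. Sham replicates 3 and 1 stood apart in how reads were spread over junctions: among circRNAs seen in 1 library only, 39.1% had 5 or more reads in sham replicate 3 and 14.8% in sham replicate 1, against 2.89% to 3.56% in the other 4 libraries. Neuronal markers gave circRNA reads at 7 of 10 genes (0.0282% to 0.0767% of reads in SCI, 0.0408% to 0.0707% in sham), with Rbfox3, Tubb3 and Stmn2 at 0. Oligodendrocyte markers did so at 7 of 10 genes (0.173% to 0.273% and 0.172% to 0.181%) and astrocyte markers at 6 of 8 (0.0336% to 0.0765% and 0.0612% to 0.0865%). All 8 microglia and macrophage markers had 0 reads, skeletal muscle had 7 reads at 1 of 6 genes, all in SCI, and Schwann cells 2 reads at 1 of 4, both in sham. Endothelial cells had reads at 1 of 5 genes (12 in SCI and 19 in sham), and oligodendrocyte precursors at 1 of 5 (3 and 5). The part of cell composition in the results below was not tested, and in whole tissue fewer cells of a type and less RNA per cell cannot be told apart.

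Before any comparison, the positions of the Mapre2 rows limit what the symbol means. The 10 rows lie on chromosome 18, plus strand, and stretch over 836324 bases, from 14713200 to 15549523. Of their 316 reads, 97.2% were in 6 junctions the table classes as intronic, and 0.949% (3 reads) in the single junction it classes as exonic. In the same stretch, 4 exonic circRNAs (15098812 to 15138853) are given to Trappc8, which encodes a subunit of the TRAPP vesicle trafficking complex, and 1 (14713200 to 14717609) to LOC100911918. Mapre2 junction 3 ends on the same base, 15138853, as an exonic Trappc8 circRNA, and junction 1 starts on the same base, 14713200, as the LOC100911918 circRNA. In the RefSeq gene order of the rat assembly GRCr8, used for names and neighbours only, 11 protein-coding entries stand between Trappc8 and Mapre2, among them Rnf125, Rnf138, Garem1, Nol4 and Dtna. The host of Mapre2 junctions 1 to 7 is therefore uncertain, and "Mapre2" below means the symbol in the table. The rows of Nav3 (chromosome 7, minus strand, 145723 bases from first start to last end) and Macf1 (chromosome 5, minus strand, 177760 bases) enclose no circRNA of another host.

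**Figure D1:**
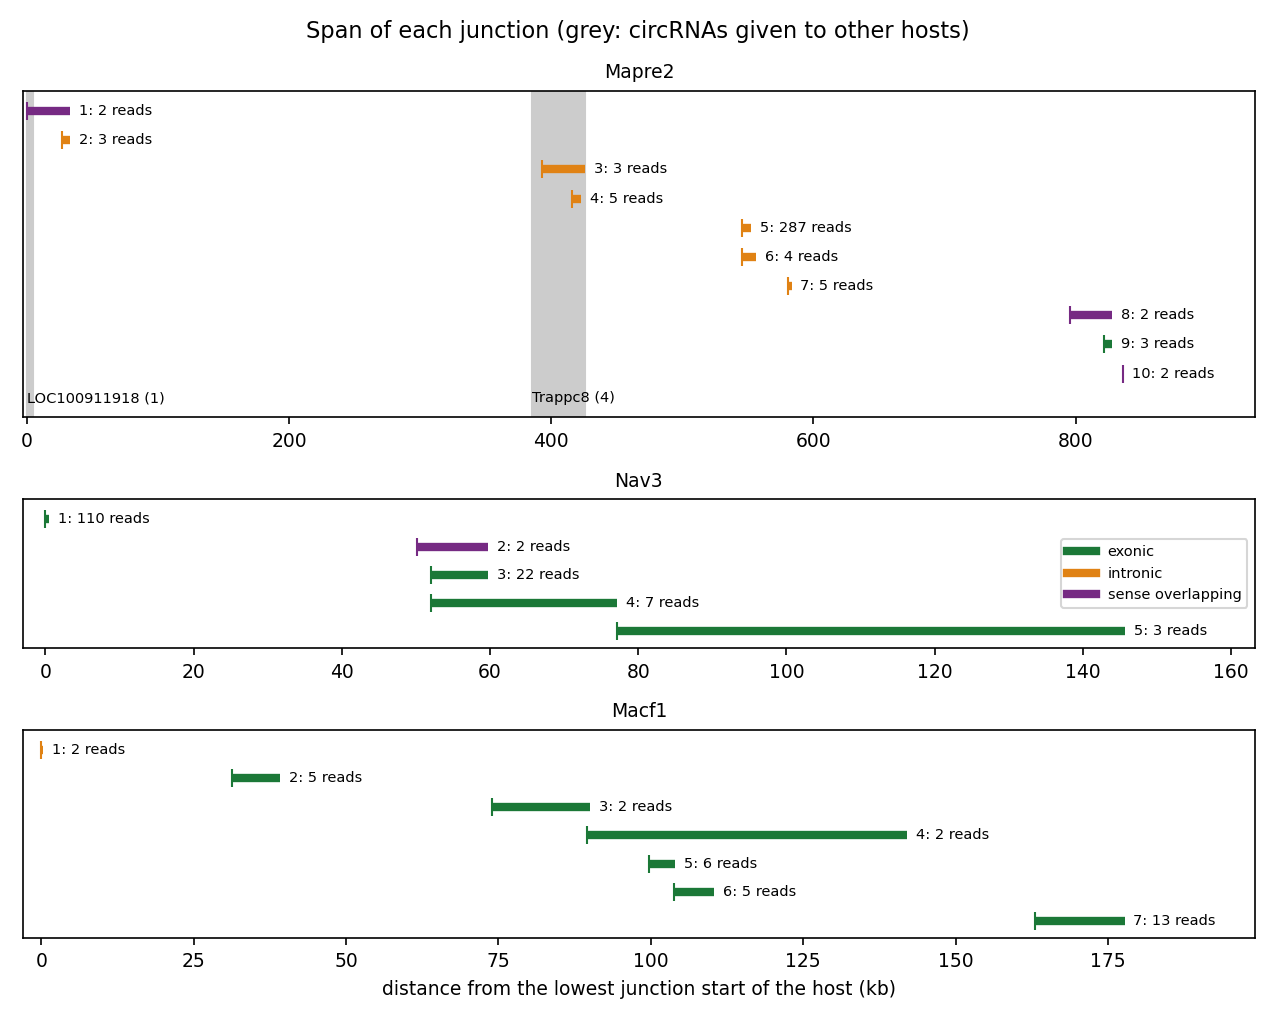
Each bar spans 1 junction from start to end, as the distance in kb from the lowest start of its host (x axis), coloured by the class in the table, with its reads over the 6 libraries beside it; grey marks circRNAs given to other hosts, with their number. Mapre2 junctions 3 and 4 fall where 4 Trappc8 circRNAs lie, and junction 5, with 287 reads, lies 243551 bases before junction 8.

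Most junctions were seen rarely. Of the 22 members, 15 (68.2%) had reads in 1 library only, beside 58.1% of all 11061 circRNAs, and 2 had reads in all 6 libraries, as did 3.62% of all circRNAs. Those 2, Mapre2 junction 5 and Nav3 junction 1, were also the 2 members that passed the filter on low counts. The 9 members confined to 1 SCI library had 2 to 4 reads each, and those confined to sham replicate 2 had 2 each. The 3 confined to sham replicate 3 had 5, 5 and 6 reads, and the 1 confined to sham replicate 1 had 5. Single-library junctions with 5 or more reads were thus in the libraries where such junctions were frequent across the whole table. The cause of that frequency was not tested. For Mapre2 and Macf1 the sums below are also given without single-library junctions.

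**Figure D2:**
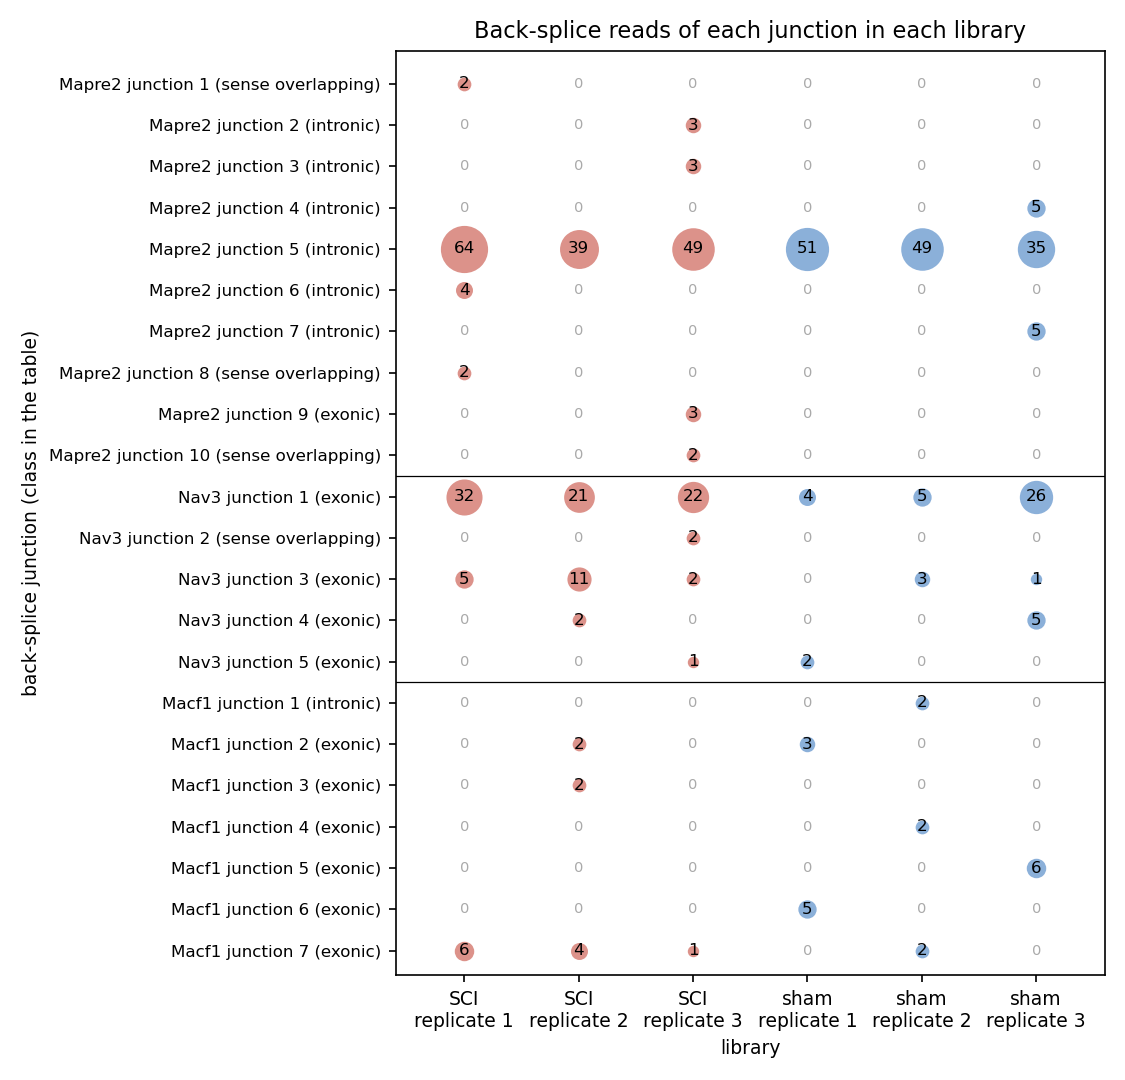
Back-splice reads (numbers, with circle size increasing with reads) of the 22 junctions (rows, ordered by position within each host) in the 6 libraries (columns; red SCI, blue sham). Mapre2 junction 5 and Nav3 junction 1 have reads in all 6 libraries, while 15 rows have reads in 1 library.

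Mapre2 was represented almost wholly by junction 5, which took 90.8% of the reads of the host. This circRNA (15258334 to 15265707, 7374 bases, intronic, without a circBase identifier) was read 64, 39 and 49 times in SCI replicates 1 to 3 and 51, 49 and 35 times in sham replicates 1 to 3. With 287 reads it ranked first among the 490 intronic circRNAs, where the next, of LOC102546835, had 72, and 23rd among all circRNAs. It carried 12.1% of all intronic circRNA reads. Its span was longer than that of 79.8% of intronic circRNAs, whose median was 1316 bases. Junction 6 shares its start and extends to 15269577; it had 4 reads, all in SCI replicate 1, and is the only Mapre2 row with a circBase identifier.

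Junction 5 did not pass the test between SCI and sham. CPM here scales reads by the library total of the circRNAs tested, multiplied by a TMM factor for each library. On this scale junction 5 averaged 5371 ± 1166 over the SCI libraries and 9132 ± 2580 over the sham libraries (SD, n = 3 each). The groups overlapped on it, because sham replicate 3 at 6171 CPM lay below SCI replicate 1 at 6421 CPM. The TMM factor was 1.09 for sham replicate 3 and 0.974 for SCI replicate 1, and their order in CPM rests on it. On the log2 scale the fold change was -0.76 (SE 0.31, 95% interval -1.42 to -0.10), with an unadjusted p of 0.0276 and an adjusted p of 0.727 by edgeR's quasi-likelihood test. The value moved to -0.48 without sham replicate 2 and to -0.19 without the filter on low counts. In that unfiltered fit the median of the 484 circRNAs also moved, from 0.09 to 0.67. Across the 484 circRNAs tested, 6.20% had an unadjusted p under 0.05 and 0.207% an adjusted one.

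Summed over its 10 rows, Mapre2 took less of each SCI library than of any sham library, and this too did not pass the test. Its reads numbered 72, 39 and 60 in the SCI libraries and 51, 49 and 45 in the sham libraries. Relative to the library total this was 0.339%, 0.187% and 0.306% in SCI and 0.438%, 0.500% and 0.354% in sham. SCI replicate 2 was the lowest and sham replicate 2 the highest, with means of 0.277% ± 0.0798 and 0.431% ± 0.0733 (SD, n = 3 each). The two-sided exact permutation test gave p = 0.10, the smallest that 3 against 3 libraries allow (0.30 adjusted over 9 measures). Of the 647 hosts tested, 5.72% were lower without overlap in this way. The host fit put Mapre2 at -0.60 on the log2 scale (SE 0.29, adjusted p = 0.764 by edgeR), at -0.67 without sham replicate 3 and at -0.49 without sham replicate 1. Among the fits with a library left out, it moved most towards 0 without sham replicate 2 (-0.32) and without SCI replicate 2 (-0.35).

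The gap in the Mapre2 sum is narrower than it looks in that count. Junction 5 alone took 0.301%, 0.187% and 0.250% in SCI and 0.438%, 0.500% and 0.275% in sham, so that sham replicate 3 overlapped the SCI libraries. The distance between sham replicate 3 and SCI replicate 1 in the sum comes with junctions 4 and 7, at 5 reads each and seen in no other library. Junction 4 lies in the stretch shared with Trappc8. With only junctions seen in 2 or more libraries, a setting added after the data were seen, the means were 0.246% and 0.404% and the groups overlapped (exact permutation p = 0.2). Without junction 5 the remaining rows took 0.0313% in SCI and 0.0262% in sham, from 19 and 10 reads, and the direction turned.

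The 3 rows of Mapre2 at the far end (junctions 8 to 10, within 40265 bases) were seen in SCI libraries only, at 2 to 3 reads each. Junction 9 (15535138 to 15540777), the exonic row, has a predicted circle of 299 bases and 3 reads in SCI replicate 3. Junction 8 shares its end and had 2 reads in SCI replicate 1, and junction 10 (15549271 to 15549523) had 2 reads in SCI replicate 3. These counts are too small for a comparison, and 0 reads in a sham library allow a share of up to 0.0236% to 0.0306%.

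Nav3 gave its reads mainly from a short exonic circle whose sham counts differed widely between libraries. Junction 1 (52262654 to 52263142, with a circBase identifier) spans 489 bases, equal to its predicted length, shorter than all but 3.19% of exonic circRNAs. By strand it lies nearest to the 3′ end of Nav3 among the 5 junctions. Its reads numbered 32, 21 and 22 in the SCI libraries and 4, 5 and 26 in the sham libraries. Sham replicate 3 held 26 of the 35 sham reads. As a share of its library it lay above every SCI library (0.204% against 0.101% to 0.151%), while sham replicates 1 and 2 lay below all of them.

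No difference passed the test for this junction. It averaged 2643 ± 512 CPM over the SCI libraries and 2169 ± 2097 over the sham libraries (SD, n = 3 each), with 4584 CPM in sham replicate 3 against 809.7 and 1112 in the other sham libraries. Its fold change on the log2 scale was 0.25 (SE 0.60, adjusted p = 0.980 by edgeR). Without sham replicate 3 it was 1.59 (adjusted p = 0.342 by edgeR), and without sham replicate 1 it was 0.03. Sham replicate 3 thus set the size of the difference, and the cause was not tested.

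Nav3 junctions 2, 3 and 4 share splice boundaries. Junctions 3 (52314739 to 52322423) and 4 (52314739 to 52339852) start on the same base, and junctions 2 and 3 end on the same base. The predicted circle of junction 4 is 116 bases longer than that of junction 3, at 729 and 613 bases, and junctions 4 and 5 overlap by exactly 116 bases. Junction 3 was read 5, 11 and 2 times in SCI libraries and 0, 3 and 1 times in sham libraries, a ratio of shares of 2.49 with an exact 95% interval for counting error of 0.821 to 10.1. Junction 4 had 2 reads in SCI replicate 2 and 5 in sham replicate 3. Junction 5, the longest span of the 22 members at 68640 bases, had 1 read in SCI replicate 3 and 2 in sham replicate 1.

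As a host, Nav3 followed its first junction. It took 0.174%, 0.163% and 0.138% of back-splice reads in SCI and 0.0516%, 0.0816% and 0.252% in sham, with sham replicate 3 above and the other sham libraries below every SCI library. The means were 0.158% ± 0.0186 and 0.128% ± 0.108 (SD, n = 3 each; exact permutation p = 0.7). In the host fit Nav3 stood at 0.30 on the log2 scale (SE 0.50, adjusted p = 0.986 by edgeR), at 1.34 without sham replicate 3 (adjusted p = 0.313) and at 0.03 without sham replicate 1. Junction 1 made up 61.8% to 86.5% of the reads of the host in SCI and 62.5% to 81.3% in sham.

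**Figure D3:**
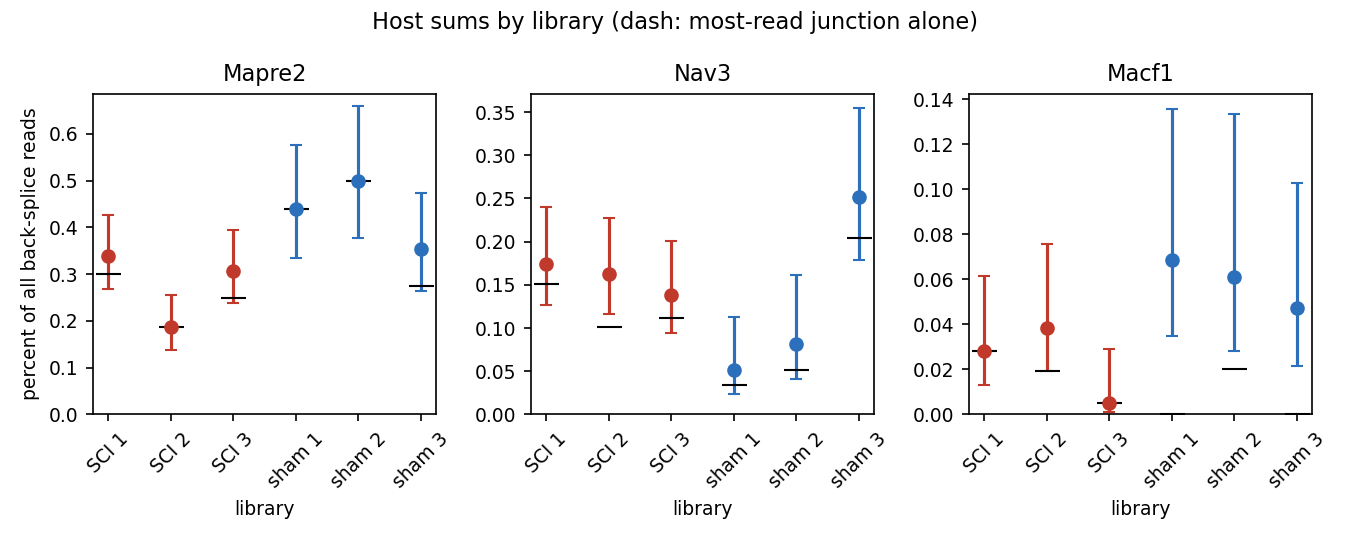
Percent of all back-splice reads taken by each host (y axis) in each library (x axis; red SCI, blue sham), with 95% Wilson intervals for counting error and a black dash for the most-read junction alone. The points of Mapre2 and Macf1 are lower in SCI without overlap, as for 5.72% of the 647 hosts tested. Some intervals of SCI and sham libraries overlap for both hosts and others do not. The Mapre2 interval of SCI replicate 2 ends at 0.256%, below every sham interval, of which the lowest, of sham replicate 3, starts at 0.264%. With only junctions seen in 2 or more libraries, the groups overlap for both hosts. Sham replicate 3 is the highest library for Nav3 at 0.252%.

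Macf1 had few reads, and most of those in SCI libraries were at 1 junction while most of those in sham libraries were at the others. SCI libraries held 6, 8 and 1 reads of the host and sham libraries 8, 6 and 6. Its most-read row, junction 7 (145005473 to 145020187, exonic, with a circBase identifier), has a predicted circle of 323 bases and by strand lies nearest to the 5′ end of Macf1. It was read 6, 4 and 1 times in SCI libraries and 0, 2 and 0 times in sham libraries. The other 6 junctions together were read 0, 4 and 0 times against 8, 4 and 6 times.

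Set against library totals, junction 7 had 11 reads in SCI and 2 in sham, a ratio of 3.04 with an exact 95% interval of 0.664 to 28.3. The other junctions had 4 and 18, a ratio of 0.123 with an interval of 0.0303 to 0.373. These intervals cover counting error only and not the spread between libraries. Junction 7 was 100%, 50.0% and 100% of the reads of the host in SCI and 0%, 33.3% and 0% in sham, where the 100% of SCI replicate 3 is 1 read of 1. This comparison was added once the values had been seen. Junction 7 was taken as the most-read row over the same 6 libraries, and 11 of its 13 reads were in SCI. That choice itself favours a higher value of junction 7 in SCI, here and in the ratios above. The separation is therefore no independent support for a difference. The groups did not overlap, with p = 0.10 in the two-sided exact permutation test and 0.30 adjusted over 9 measures. This measure was not taken over all hosts, so the share of hosts with such a separation is not known. No junction of Macf1 passed the filter. Without it, the share of junction 7 within the host moved by 1.74 on the log2 scale (adjusted p = 0.607 by edgeR's diffSpliceDGE).

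The Macf1 sham reads outside junction 7 came mostly from rows confined to a single library. Junction 5 (144942095 to 144946387) had 6 reads, all in sham replicate 3, and junction 6 (144946238 to 144952867) had 5, all in sham replicate 1. These circles overlap by 150 bases and share no boundary. Junction 4 (144931904 to 144984508) encloses both, with a predicted length of 10896 bases, and had 2 reads in sham replicate 2. Junction 2 (144873727 to 144881590) was the only other row seen in 2 libraries, with 2 reads in SCI replicate 2 and 3 in sham replicate 1. Junction 3 had 2 reads in SCI replicate 2 and the intronic junction 1, of 269 bases, 2 in sham replicate 2.

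The sum of Macf1 was 0.0282%, 0.0384% and 0.00510% of back-splice reads in SCI and 0.0688%, 0.0612% and 0.0472% in sham. Every SCI library was below every sham library, with means of 0.0239% ± 0.0171 and 0.0590% ± 0.0110 (SD, n = 3 each; exact permutation p = 0.10, and 0.30 adjusted), beside the same 5.72% of all hosts. The host fit gave a log2 fold change of -1.24 (SE 0.86, 95% interval -3.10 to 0.61, adjusted p = 0.938 by edgeR), which did not pass. With only junctions seen in 2 or more libraries, the direction turned: the means were 0.0207% in SCI and 0.0154% in sham, with overlap (exact permutation p = 0.5). SCI replicate 3, with a single read, also weighed on the fitted value, which was -0.76 without it, -1.33 without sham replicate 3 and -1.03 without sham replicate 1.

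**Figure D4:**
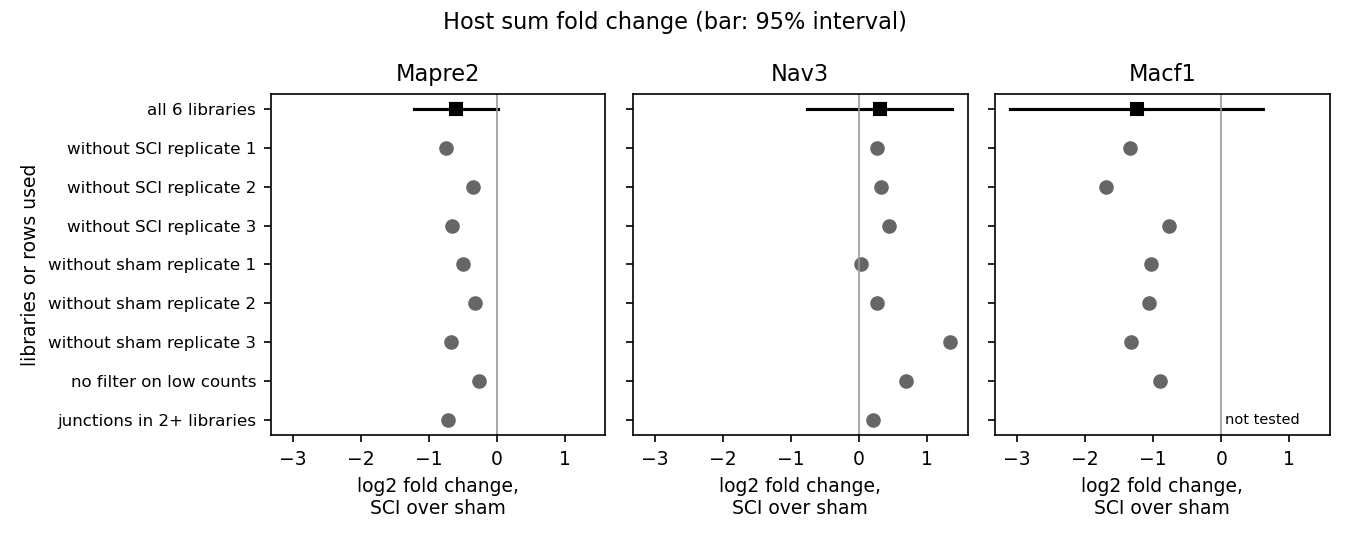
Log2 fold change of each host sum, SCI over sham (x axis), with all libraries (square, bar for the 95% interval) and with a library or a set of rows left out (circles; y axis). Values of Nav3 range from 0.03 without sham replicate 1 to 1.34 without sham replicate 3, and Macf1 was not tested when rows seen in a single library were dropped.

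Of the 3 host sums, 0 passed the test at adjusted p under 0.05, and 0 had an unadjusted p under 0.05 by edgeR, against 0.309% and 6.49% of the 647 hosts. DESeq2 and limma-voom also called 0 of the 3, against 0.618% and 0.464% of hosts. Of the 2 junctions tested, 0 passed by edgeR, DESeq2 or limma-voom, which called 0.207%, 0.413% and 0.413% of the 484 circRNAs. By edgeR 1, Mapre2 junction 5, had an unadjusted p under 0.05, as did 6.20% of the 484 circRNAs. The number of junctions with at least 1 read was 4, 1 and 5 for Mapre2 in SCI and 1, 1 and 3 in sham. For Nav3 it was 2, 3 and 4 against 2, 2 and 3, and for Macf1 1, 3 and 1 against 2, 3 and 1. These groups overlapped for all 3 hosts (exact permutation p = 0.4, 0.7 and 1). The SCI libraries were deeper, which raises such counts. The mean differences, SCI minus sham, were 1.67, 0.667 and -0.333. Thinned to the smallest library total they were 1.24, 0.310 and -0.720 (exact permutation p = 0.4, 0.7 and 0.4).

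The 3 hosts did not follow a common pattern over the 6 libraries. Between their log2 CPM values Pearson's r was -0.54 for Mapre2 and Nav3, 0.37 for Mapre2 and Macf1, and -0.41 for Nav3 and Macf1, as a description over 6 libraries that differ in depth. Of 646 other hosts, the most like Mapre2 were Serpinc1, the antithrombin gene (r = 0.95), the ubiquitin-specific protease family gene Usp54 (0.94) and Fam13b (0.92). Serpinc1 had 60, 40 and 57 reads against 47, 58 and 48. Among the most like Nav3 were Tomm70a, for a mitochondrial import receptor (0.98), and RGD1563520 (0.98). Tomm70a had 9, 8 and 8 reads against 1, 2 and 10, again with sham replicate 3 far above the other sham libraries. The most like Macf1 were Prex2, a Rac exchange factor gene (0.96), the lipid transfer gene Vps13c (0.94) and Apbb2 (0.92). Prex2 had 15, 26 and 6 reads against 18, 22 and 16, with SCI replicate 3 lowest as for Macf1. These hosts were picked as the most alike of 646, so a shared profile over the libraries follows from the choice.

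Family members of the 3 hosts, chosen after their values were seen, ranged from 0 to 46 circRNA reads. Mapre1 and Nav1 had 0 reads, and Mapre3, which encodes EB3, had 2, both in SCI replicate 1. Nav2, over 4 junctions, had 4, 0 and 0 reads against 5, 2 and 7. Dst, which encodes dystonin, the other mammalian spectraplakin, had 1, 10 and 15 reads against 8, 4 and 8 over 5 junctions.

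Other microtubule hosts also gave no call. Of 23 listed plus-end tracking genes, 16 had reads, 6 were tested, 2 of them with a positive log2 fold change, and 0 passed (0 at an unadjusted p under 0.05, edgeR); their median was -0.28, beside 0.14 over the 647 hosts. Pafah1b1, the LIS1 dynein regulator gene, stood at -0.55 (SE 0.54), and Clip4, of the CLIP family, at 0.12 (SE 0.61). Ttbk2, a tau tubulin kinase gene, stood at 0.00 (SE 0.50) and Slain1, a plus-end adaptor gene, at -0.81 (SE 0.77).

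Among 30 crosslinker and lattice-binding genes, 18 had reads, 5 were tested, 3 of them positive, and 0 passed (0 unadjusted, edgeR); the median was 0.15. The cytospin gene Specc1l stood at 0.15 (SE 0.49), Camsap1, for a minus-end binding protein, at -0.16 (SE 0.47), Dst at -0.40 (SE 0.85) and the doublecortin-like kinase gene Dclk2 at 0.32 (SE 0.88). Of 25 tubulin-modifying and severing genes, 11 had reads, 2 were tested, 1 of them positive, and 0 passed (0 unadjusted, edgeR). Their median was 0.52, beside 0.14 over the 647 hosts. Ttll7, a tubulin polyglutamylase gene, had 27, 38 and 10 reads against 1, 8 and 8, and its fold change was 1.27 on the log2 scale (SE 0.68, adjusted p = 0.787). Agtpbp1, which encodes an enzyme that removes glutamates from tubulin, stood at -0.22 (SE 0.28). Spast, the gene of the severing enzyme spastin, did not reach the filter; it had 6, 10 and 4 reads against 0, 1 and 0, a ratio of shares of 11.1 with an exact 95% interval for counting error of 1.77 to 459. Ttll5 had 0, 3 and 2 reads in SCI and 0 in sham, also below the filter.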

How the data were processed

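Raw counts of junction reads and their log2 CPM by edgeR were both deposited, a row for each circRNA, as per the file headers. All 132 log2 values of the 22 members matched a recomputation with TMM scaling and a prior count of 0.25 within 1e-06; tests used the counts. Bowtie 0.12.2 and the mouse build mm8 are listed per the submitters' processing notes; no source used here names the build of the coordinates or the caller. Coordinates are counted from 1. Each host sum adds all its circRNAs except antisense ones.

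The whole table was fitted with edgeR 4.0.16 in R 4.3.3 (quasi-likelihood F test), with TMM, filterByExpr (minimum count 5, minimum total 15) and group as the only term; p-values were Benjamini-Hochberg adjusted over 484 circRNAs or 647 hosts at 0.05. SE is the log2 fold change over the root of F. In the circRNA fit 1 read was worth 100.3 to 222 CPM. Shares and junction numbers were compared by exact permutation (SciPy 1.17.1). Wilson and exact intervals, and the floor of 3 reads behind a count of 0, cover counting error only. Alternatives included DESeq2 1.42.0 and limma-voom (limma 3.58.1). All 15 pairs of libraries differed by more than sampling noise, with chi-square over its degrees of freedom at 2.23 to 5.13. The edgeR steps were tested on simulated data.

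Members and lists were chosen with earlier results of these data known. All members are named; from each gene list the 4 hosts with the most reads and any called, and for each host the 3 most like it by Pearson's r of log2 CPM (prior count 2). A host met by this rule is not reported here, with no substitute.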

Additional observations from a re-analysis of the deposited data

How the results depend on the processing

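None of the 3 host sums and neither tested junction passed in any alternative run (other scaling, filters, DESeq2, limma-voom, the replicate block, each library left out, and for host sums antisense rows added or rows of 1 library dropped), with adjusted p from 0.222 to 1.00. Log2 fold changes kept their sign: -0.85 to -0.19 for Mapre2 junction 5, 0.03 to 1.59 for Nav3 junction 1, and for host sums -0.74 to -0.26 for Mapre2, 0.03 to 1.34 for Nav3 and -1.69 to -0.76 for Macf1, which the stricter filter and the dropping of single-library rows left untested. Without the filter the median of all tested hosts moved by 0.34 and that of circRNAs by 0.58. The difference in share turned for Mapre2 with exonic circRNAs only (0.00801 percentage points, from 3 reads) and without its most-read junction (0.00505), and for Macf1 with junctions of 2 or more libraries (0.00531); the cause was not tested. With libraries left out it ran from -0.00826 to 0.0917 for Nav3. The difference in detected junctions ran from -1 to 0.167 for Macf1, and that in the percent of reads at the most-read junction from -9.81 to 1.85 for Mapre2. None of these hosts had 2 junctions past the filter, so shares within a host were tested without it only: of the 22 junctions 0 passed (lowest adjusted p = 0.607, 0 unadjusted under 0.05, edgeR's diffSpliceDGE). Same-numbered libraries correlated at 0.103, 0.0617 and 0.0900 in their deviations from group means, each library best with its own number, a hint from the data only; with the replicate block the log2 fold changes were -0.62, 0.54 and -1.46 for Mapre2, Nav3 and Macf1, with 0 calls. Depth limits all of this: 20 of the 22 junctions were below the filter, and with no filter 0 of the 22 passed (lowest adjusted p = 0.457, 0 unadjusted under 0.05, edgeR).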
